A study of Sus scrofa domesticus with 4 samples.

Results

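The 10 genes described here are chemokines with a named probe on a pig expression array, 5 of the CXC class (CXCL8, PPBP, CXCL2, CXCL10 and CXCL12) and 5 of the CC class (CCL2, CCL4, CCL5, CCL8 and CCL20). They were found by matching the RefSeq mRNA accession of every non-control probe to a pig gene table, which gave 10 of the 3029 genes that could be named in this way, with 14 probes in all. CXCL2, CXCL10, CCL2 and CCL5 had 2 probes each and the other genes 1. The RNA came from myometrium, the muscle layer of the uterus, of Large White x Polish Landrace gilts aged 7 to 8 months and pregnant for 15 to 16 days. Slices of about 100 mg from the middle of the uterine horns were kept for 24 h in M199 culture medium with 10 nM orexin B, a neuropeptide of the orexin system, or without treatment, after 2 h of preincubation. Cultures came from 4 gilts in 4 separate experiments, each with duplicate vials, and each of 4 arrays compared 1 treated with 1 untreated RNA in 2 colours. The labels do not state that the RNAs on an array came from the same gilt, and the spread over arrays includes any difference between slices.

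Chemokines are small secreted proteins that bind to the matrix and the vessel wall and guide leukocytes along their gradients through G protein-coupled receptors. The classes are named after their first cysteines, which are separated by a residue in CXC chemokines and adjacent in CC chemokines. CXCL8, PPBP and CXCL2 bind CXCR2 and draw neutrophils, whereas most CC chemokines draw monocytes, T cells or dendritic cells. In the uterus, chemokines take part in leukocyte entry at implantation and in the inflammatory change of the myometrium at labour.

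Values below are log2 ratios with the orexin B signal divided by the untreated signal of the same array, so that 0 is no difference and 1 is 2-fold higher with orexin B. The dye of the orexin B RNA was Cy5 for arrays 1 and 3 but Cy3 for arrays 2 and 4, and the ratios were turned accordingly. A probe was tested if either the treated or the untreated channel was marked by the scanner software as well above background 4 times out of 4, which held for 19879 of 43603 probes and for all 14 chemokine probes. Of the probes, 37.6% were well above background in the untreated channel of array 1, against 54.3% in its treated channel. In the untreated channels of arrays 2 to 4 the share ran from 45.5% to 58.2%. No spot of the 14 chemokine probes was saturated. The median ratio over all tested probes lay between 0.0036 and 0.024 on the 4 arrays. The number of arrays limits the precision, and the p-values take into account no variation beyond these 4 arrays. Limma's moderated test draws the variance of each probe towards that of all tested probes. For widely spread probes such as those of CXCL8 and CXCL2, the standard errors and intervals below are therefore narrower than their own 4 values would give. Arrays 2, 3 and 4 shared a slide and array 1 lay on another.

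Of the 10 chemokines, 9 had a mean above 0, and CXCL12 alone had a mean below 0. Among all tested probes 54.1% had a mean above 0. CXCL8 and PPBP were the members with means of at least 2-fold, a size that 0.0855% of all tested probes reached upwards. No member was 2-fold lower, as 0.0755% of all tested probes were. With limma's moderated test and Benjamini-Hochberg adjustment over all tested probes, none of the 14 chemokine probes had an adjusted p under 0.05, where 0.00% of the 19879 probes did. At an unadjusted p under 0.05 the same test gave 2 of the 14 probes, those of CXCL8 and PPBP, against 7.72% of all tested probes in either direction and 4.31% upwards. Downwards it gave 0 of the 14, against 3.41%. PPBP had passed the filter through its treated channel alone, and with both channels required the count was 1. With its brightest probe, 3 of the 10 genes (CXCL8, PPBP and CCL8) lay above 0 on every array, against 9.05% of all tested probes, and 0 lay below 0 on every array, against 7.20%. The median over the 10 genes was 0.40, beside 0.02 over all tested probes.

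**Figure D1:**
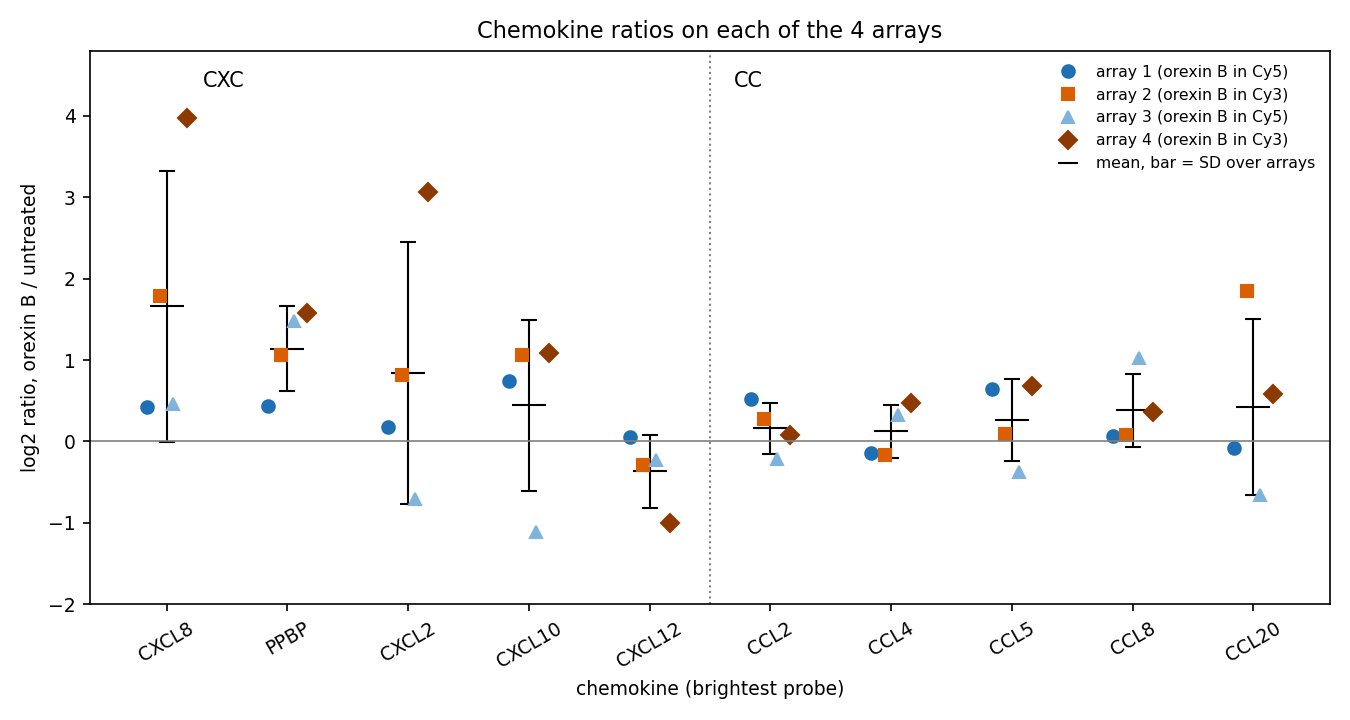
The log2 ratio of orexin B over untreated (vertical axis) is plotted for the brightest probe of each of the 10 chemokines (horizontal axis, CXC left and CC right of the dotted line). Each symbol is 1 of the 4 arrays, with orexin B in Cy5 in blue and in Cy3 in orange or brown, and the black dash and bar are the mean and SD over 4 arrays. CXCL8 and CXCL2 reach 3.97 and 3.07 on array 4, whereas all CC values except 1 each of CCL8 and CCL20 stay below 1.

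CXCL8 (interleukin 8, NM_213867), the main neutrophil attractant of inflamed tissue, had log2 ratios of 0.42, 1.78, 0.47 and 3.97 on arrays 1 to 4. Arrays 1 and 3 were close to each other, and array 4 stood far above them with a 15.7-fold difference. The level of CXCL8, given as the log2 intensity of a channel after normalization, was 14.78, 17.25, 14.18 and 17.03 with orexin B and 14.35, 15.47, 13.71 and 13.06 without. The treated channel was the higher on each array, but the treated and untreated levels overlapped when taken over arrays. Array 4 had the lowest untreated level and the second highest treated level. The mean ratio was 1.66 ± 0.55 (moderated standard error), 3.16-fold higher with orexin B, with a 95% interval from 0.36 to 2.96. It did not pass over all probes in limma's moderated test (adjusted p = 0.596), and the SD over arrays, 1.66, was as large as the mean. Without array 4 the mean was 0.89.

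PPBP (NM_213862), the precursor of the platelet-derived neutrophil-activating peptide, had ratios of 0.43, 1.07, 1.48 and 1.58 on arrays 1 to 4. All 4 arrays lay above 0, and the SD over arrays was 0.52. Its treated levels were 8.86, 9.99, 9.84 and 10.83 and its untreated levels 8.43, 8.92, 8.36 and 9.25. The untreated spot of array 1 was not well above background, so the ratio of that array rests on a dim spot. On array 3 the untreated level, 8.36, was lower still, although that spot was marked well above background. The mean was 1.14 ± 0.20, 2.20-fold higher with orexin B, with a 95% interval from 0.67 to 1.61. The adjusted p was 0.596 in limma, where PPBP entered the test through its treated channel alone (well above background on 4 treated and 3 untreated spots). With Agilent's own processed ratio the mean was 1.68, and without 1 array it ran from 0.99 to 1.38. On the slide that arrays 2, 3 and 4 shared, the mean was 1.38 for PPBP and 2.07 for CXCL8.

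CXCL2 (NM_001001861), a CXCR2 ligand made by stimulated macrophages and stromal cells, had ratios of 0.18, 0.82, -0.71 and 3.07 on arrays 1 to 4. It was higher with orexin B on 3 arrays and lower on array 3, and array 4, at 8.38-fold, set most of the mean. The treated levels were 14.92, 17.74, 14.76 and 17.00 and the untreated levels 14.74, 16.92, 15.47 and 13.93. Array 2 had the highest level in each channel, and the groups overlapped. The mean was 0.84 ± 0.53, with a 95% interval from -0.42 to 2.10 (adjusted p = 0.750 in limma). It was 0.096 without array 4 and 1.36 without array 3. The second CXCL2 probe had 0.30, 0.84, -0.73 and 3.00, within 0.12 of the first on every array.

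In the gene table, which follows the assembly Sscrofa11.1, these neutrophil attractants lie close together. Between CXCL8 and PPBP lies 1 protein-coding gene, AMCF-II, a further neutrophil chemoattractant of the pig, and 2 lie between PPBP and CXCL2. AMCF-II, listed among the other ligands below, had 0.44, 0.89 and 0.03 on arrays 1 to 3 and a spot left out as an outlier on array 4, so its mean of 0.46 ± 0.19 rests on 3 arrays. The arrays name no build, so no coordinates are given.

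CXCL10 (NM_001008691), the interferon-inducible ligand of CXCR3 on activated T and NK cells, had ratios of 0.74, 1.06, -1.11 and 1.09 on arrays 1 to 4. Arrays 1, 2 and 4 were close to each other and array 3 was of opposite sign. The treated levels were 16.49, 17.54, 16.07 and 16.34 and the untreated levels 15.75, 16.48, 17.18 and 15.26. Array 3 was the array with the highest untreated and the lowest treated level. The mean was 0.44 ± 0.36 (95% interval -0.40 to 1.29, adjusted p = 0.791 in limma), and it was 0.96 without array 3, 0.24 without array 2 and 0.23 without array 4. The second CXCL10 probe gave the same sign on all 4 arrays, with a mean of 0.40.

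CXCL12 (NM_001009580), a largely constitutive chemokine of stromal cells that acts through CXCR4, had ratios of 0.05, -0.29, -0.23 and -0.997 on arrays 1 to 4. It was lower with orexin B on 3 arrays, most on array 4, and level on array 1. The treated levels were 10.10, 10.71, 10.04 and 9.13 and the untreated levels 10.04, 11.00, 10.27 and 10.13. The treated level of array 4 was the lowest of all, and the other treated levels lay among the untreated ones. The mean was -0.36 ± 0.18, with a 95% interval from -0.79 to 0.06 (adjusted p = 0.677 in limma), and it was -0.15 without array 4.

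Among the CC chemokines, CCL2 (NM_214214) and CCL8 (NM_001164515) are monocyte attractants, with 1 protein-coding gene, CCL11, between them in the gene table. CCL2 had ratios of 0.52, 0.28, -0.22 and 0.07 on arrays 1 to 4 with its brightest probe and 0.47, 0.20, 0.07 and 0.44 with the other. The probes differed in sign on array 3, and by up to 0.36 on array 4. The treated levels of the brightest probe were 16.26, 16.33, 15.25 and 14.67 and the untreated levels 15.74, 16.05, 15.48 and 14.60, so that arrays differed from each other by more than the channels of an array did. The mean was 0.16 ± 0.15 (95% interval -0.19 to 0.51, adjusted p = 0.814 in limma) for the brightest probe and 0.29 ± 0.12 for the other. Leaving out array 1 gave 0.044 for the brightest probe, leaving out array 3 gave 0.29, and median centring in place of loess gave 0.050.

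CCL8 had ratios of 0.07, 0.08, 1.02 and 0.36 on arrays 1 to 4, above 0 on each and largest on array 3, where 6 of the 10 members were below 0. Its treated levels were 11.36, 8.73, 9.24 and 10.03 and its untreated levels 11.29, 8.65, 8.22 and 9.67. Array 1 had the highest level in each channel by more than 1 log2 unit. The ratio of array 3 rests on the lowest of these levels, 8.22, although that spot was marked well above background. The mean was 0.38 ± 0.18 (95% interval -0.04 to 0.81, adjusted p = 0.668 in limma), 0.17 without array 3 and 0.62 with Agilent's processed ratio.

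CCL4 (NM_213779) and CCL5 (NM_001129946) draw monocytes and T cells and are made by activated macrophages and lymphocytes. CCL4 had ratios of -0.14, -0.17, 0.33 and 0.47 on arrays 1 to 4, below 0 on arrays 1 and 2 and above 0 on arrays 3 and 4. Its mean was 0.12 ± 0.15 (95% interval -0.23 to 0.48, adjusted p = 0.867 in limma). Without 1 array the mean ran from 0.0062, without array 4, to 0.22, without array 2. Its levels ran from 8.98 to 9.94 with orexin B and from 8.65 to 10.08 without, so that the treated range lay inside the untreated range. CCL5 had ratios of 0.64, 0.09, -0.38 and 0.69, high on arrays 1 and 4 and below 0 on array 3. Its mean was 0.26 ± 0.20 (95% interval -0.20 to 0.72, adjusted p = 0.772 in limma), and its second, dimmer probe had a mean of 0.02 ± 0.17. On array 2 those probes differed by 0.58, the largest disagreement between probes of a member. Without array 3 the mean of the brightest CCL5 probe was 0.47, and it was 0.12 without array 4, 0.13 without array 1 and 0.14 with median centring. Its levels ran from 12.76 to 14.09 with orexin B and from 12.12 to 14.00 without.

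CCL20 (NM_001024589), the CCR6 ligand that epithelia and stromal cells release on inflammatory stimulation, had ratios of -0.08, 1.85, -0.65 and 0.58 on arrays 1 to 4. Arrays 2 and 4 were above 0 and arrays 1 and 3 below, and array 2 held the largest ratio of the 5 CC members. The treated levels were 8.90, 12.32, 8.78 and 8.47 and the untreated levels 8.98, 10.47, 9.44 and 7.89, so that array 2 was the highest in each channel. The ratio of array 4 rests on the lowest of these levels, 7.89, although that spot was marked well above background. The mean was 0.43 ± 0.37 (95% interval -0.44 to 1.29, adjusted p = 0.803 in limma). It was -0.051 without array 2, a change of sign, 0.78 without array 3 and 0.65 with Agilent's processed ratio.

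**Figure D2:**
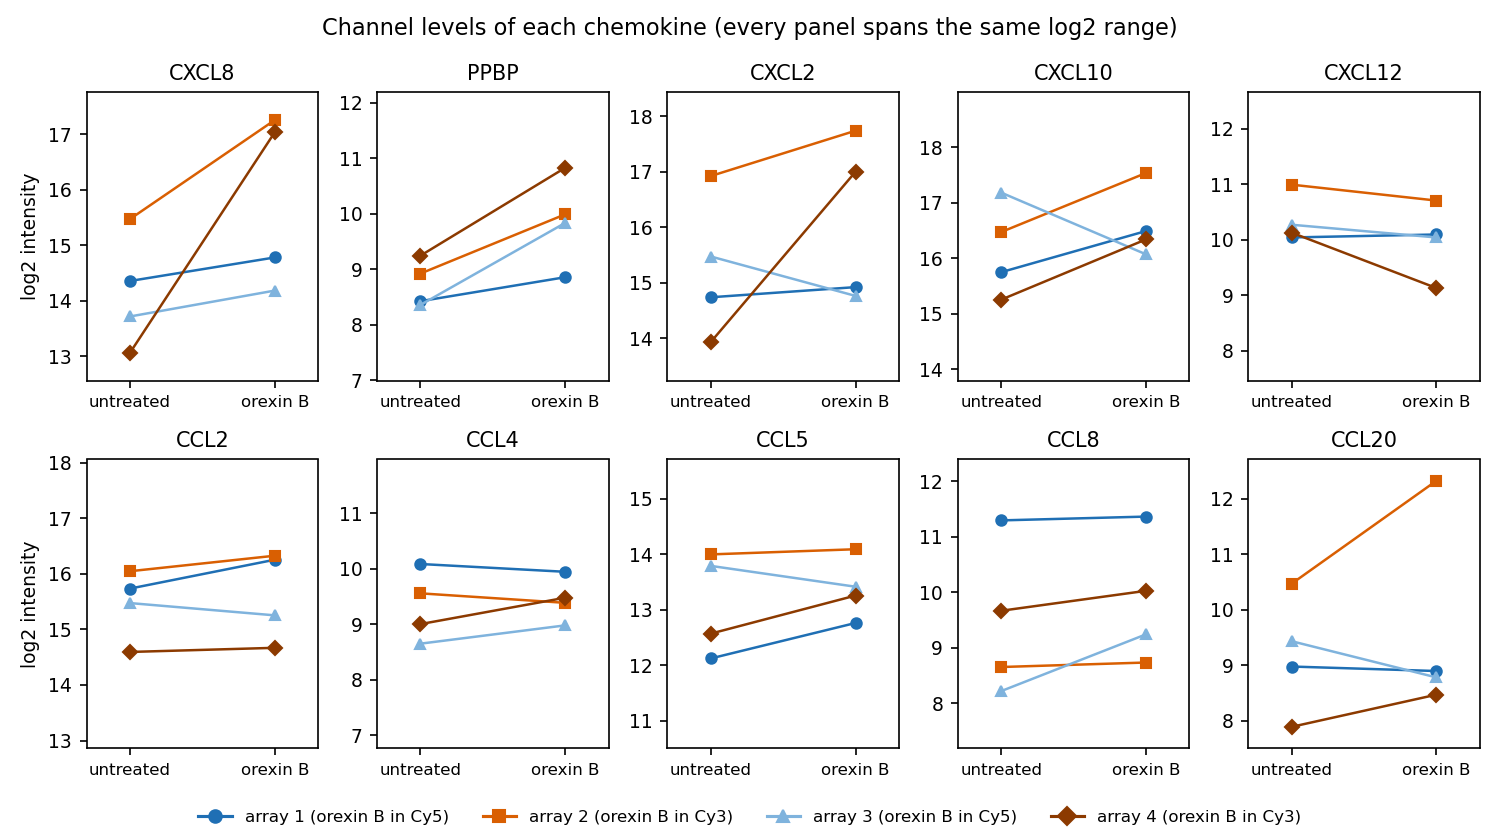
The normalized log2 intensity (vertical axis) of each chemokine's brightest probe is plotted in the untreated and the orexin B channel, with a line joining the channels of an array. Every panel spans the same number of log2 units, but its position differs, since levels of different probes cannot be compared. For CXCL8 and CXCL2 the steepest line is that of array 4, from 13.06 to 17.03 and from 13.93 to 17.00, and for CCL2 the lines are nearly flat while the untreated levels lie 1.45 apart.

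For none of the 14 chemokine probes did the 4 treated levels lie all above or all below the 4 untreated levels, which held for 1.77% of all tested probes. The spread of untreated levels over arrays was widest for CCL8 (3.07 log2 units), CXCL2 (2.99) and CCL20 (2.58), and narrowest for PPBP (0.89) and CXCL12 (0.95).

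Set against each other, the CXC members had a mean ratio of 0.37, 0.89, -0.02 and 1.74 on arrays 1 to 4 and the CC members 0.20, 0.43, 0.02 and 0.43. The CXC mean was the higher on arrays 1, 2 and 4 and slightly the lower on array 3. The difference, CXC minus CC, was 0.17, 0.46, -0.04 and 1.31, with a mean of 0.47 and an SD of 0.59 over 4 arrays. Its spread was therefore larger than its mean, and it was 0.19 without array 4. No test was made of it, since the members were chosen with results known. By gene, the CXC median was 0.84 (4 of 5 above 0) and the CC median 0.26 (5 of 5 above 0). The classes differed most in range, as CXC means ran from -0.36 for CXCL12 to 1.66 for CXCL8 and CC means from 0.12 for CCL4 to 0.43 for CCL20.

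**Figure D3:**
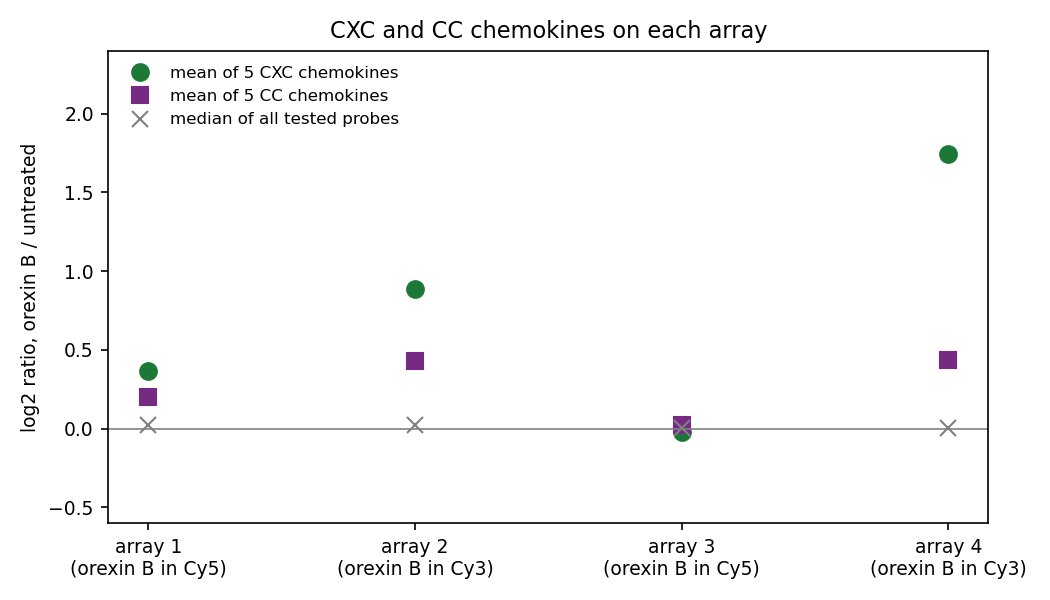
The mean log2 ratio of orexin B over untreated (vertical axis) of the 5 CXC members and of the 5 CC members is plotted for each array (horizontal axis), with the median of all tested probes as a cross. The CXC mean reaches 1.74 on array 4 against 0.43 for CC, and the classes meet near 0 on array 3.

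In order of mean ratio the members ran CXCL8, PPBP, CXCL2, CXCL10, CCL20, CCL8, CCL5, CCL2, CCL4 and CXCL12. No neighbours in this order differed beyond their spread. The difference of CXCL8 and PPBP was 0.52 with an SD of 1.43 over arrays, with CXCL8 the higher on 2 arrays of 4. That of CCL4 and CXCL12, the last pair, was 0.49 with an SD of 0.72, with CCL4 the higher on 3 arrays. The member with the highest ratio was a different one on each array, CXCL10 on array 1, CCL20 on array 2, PPBP on array 3 and CXCL8 on array 4. Of the 10 members, 8, 8, 4 and 9 were above 0 on arrays 1 to 4.

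The ratios also moved with the dye orientation. With orexin B in Cy3 (arrays 2 and 4) the mean was 2.88 for CXCL8, 1.94 for CXCL2, 1.07 for CXCL10 and 1.22 for CCL20. With orexin B in Cy5 (arrays 1 and 3) these means were 0.45, -0.26, -0.19 and -0.37. PPBP was above 0 in each orientation, at 1.32 and 0.95. The same was true of CCL2 (0.18 and 0.15), CCL4 (0.15 and 0.09), CCL5 (0.39 and 0.13) and CCL8 (0.22 and 0.55), whereas CXCL12 was below 0 in each (-0.64 and -0.09). With dye as a further term, limma gave a dye coefficient of -1.22 ± 0.32 for CXCL8 and -0.79 ± 0.22 for CCL20, against -0.19 ± 0.19 for PPBP, and 0 chemokine probes passed for dye after adjustment (adjusted p = 0.263 for CXCL8). At an unadjusted p under 0.05 for dye the fit gave 4 of the 14 chemokine probes, those of CXCL8, CXCL2 (2 probes) and CCL20, against 12.5% of all tested probes. The orexin B coefficient in that fit was 1.66 ± 0.32 for CXCL8 and 1.14 ± 0.19 for PPBP (adjusted p = 0.195 for each). Over all alternatives the adjusted p of CXCL8 ran from 0.0845 to 1.00 and that of PPBP from 0.0783 to 1.00. At an unadjusted p under 0.05 it gave 5 chemokine probes, those of CXCL8, PPBP, CXCL2 (2 probes) and CXCL12, against 12% of all tested probes. With 2 arrays in each orientation, differences between animals and between dyes cannot be told apart here.

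The arrays held probes for 16 of 33 other chemokine ligands in a list drawn up with earlier results known, of which 11 were tested. Of these, 8 had a mean above 0 and 3 below, with a median of 0.08, the value of CCL25. CCL25 and CCL11, which are among the 8, passed the filter through the treated channel alone. Of the 11, limma gave 1 upwards and 1 downwards at an unadjusted p under 0.05, and 0 after adjustment. Of all tested probes, 54.1% had a mean above 0, and 4.31% reached that p upwards and 3.41% downwards. CXCL16, the ligand of CXCR6, had 0.23, 0.45, 0.26 and 0.33 on arrays 1 to 4, a mean of 0.32 ± 0.11 (adjusted p = 0.596). Its 4 ratios lay closer together than those of any of the 10 members. CCL19, a CCR7 ligand of lymphoid stroma, had -0.14, -0.34, -0.23 and -1.52, a mean of -0.56 ± 0.24 (adjusted p = 0.645), with array 4 far below the rest. CCL21, the other CCR7 ligand, had 0.93, -0.18, -0.26 and -1.72 and a mean of -0.31 ± 0.37, so that the signs differed between arrays.

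CXCL9 and CXCL11 share the receptor CXCR3 with CXCL10 and are likewise induced by interferons. CXCL9 had 1.00, 0.83, -2.26 and 0.45 on arrays 1 to 4 and CXCL11 0.95, 3.04, -0.77 and 0.87. All 3 CXCR3 ligands were above 0 on arrays 1, 2 and 4 and below 0 on array 3, where their mean was -1.38, against 0.90, 1.64 and 0.80 on the other arrays. The means over arrays were 0.0046 ± 0.51 for CXCL9 and 1.02 ± 0.52 for CXCL11 (adjusted p = 1.00 and 0.689 in limma). CCL3L1, a close relative of CCL4, had -0.05, 0.07, 0.60 and 0.52, low on arrays 1 and 2 and high on arrays 3 and 4 as CCL4 was.

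Of 25 chemokine receptor names, 14 had a probe and 9 were tested. Of the 9, 8 had a mean above 0, where 54.1% of all tested probes did. CCR10, XCR1 and CCRL2, which are among the 8, passed the filter through the treated channel alone. At an unadjusted p under 0.05 limma gave 1 of the 9, CCR1, upwards, against 4.31% of all tested probes, with 0 after adjustment. CCR1, a receptor for CCL5 and other CC ligands on monocytes, had 0.51, 0.22, 1.07 and 0.62 on arrays 1 to 4, a mean of 0.61 ± 0.16 or 1.52-fold (adjusted p = 0.596). It was above 0 on every array, as was CCR7 at 0.29 ± 0.13. CXCR4, the receptor of CXCL12, had 0.53, -0.40, 0.71 and 0.36, with array 2 apart from the others, and the scavenging receptor ACKR3, which also binds CXCL12, had -0.29, 0.32, 0.52 and -0.34. ACKR1, a chemokine-binding receptor of venules and red cells, was the receptor with a mean below 0, at -0.26 ± 0.14. CCR10, XCR1, CCRL2 and ACKR4 had means between 0.03 and 0.08. CCR2, the receptor of CCL2 and CCL8, was not well above background in any channel of any array, nor were CCR3 and ACKR2, so no ratio is given for them.

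**Figure D4:**
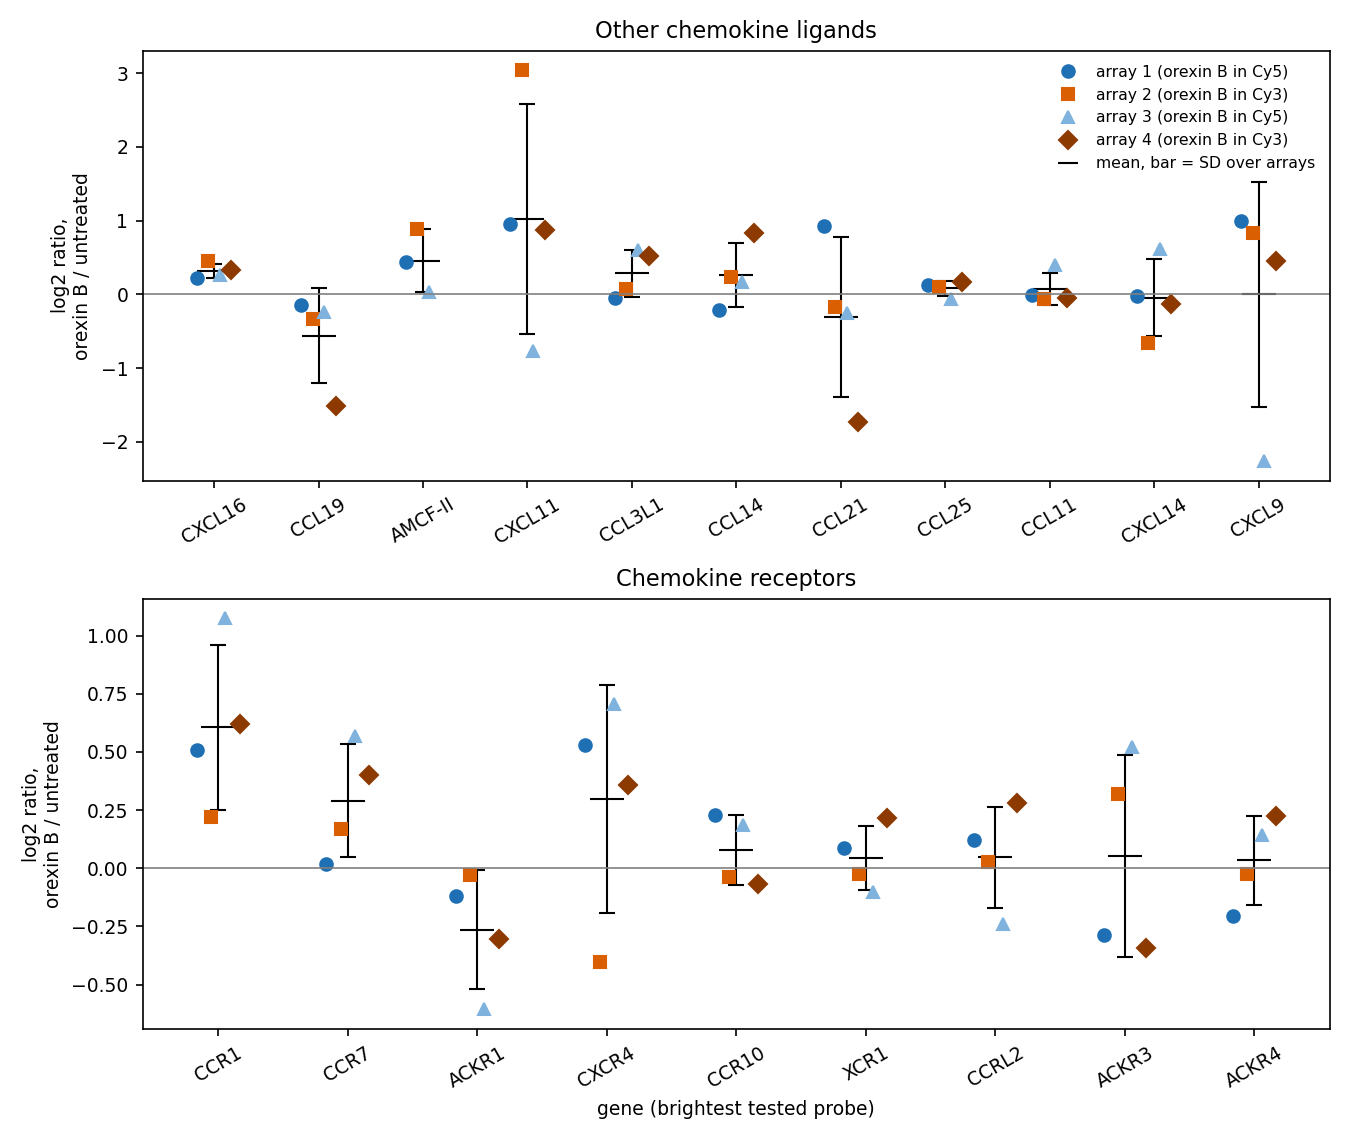
The log2 ratio of orexin B over untreated (vertical axis) is plotted for the 11 other tested chemokine ligands (top) and 9 tested receptors (bottom), ordered by p. Symbols are arrays, and the dash and bar are the mean and SD over the arrays measured, 3 for AMCF-II and 4 for the others. CXCL9 and CXCL11 show array 3 below 0 at -2.26 and -0.77, and all 4 arrays of CCR1 and CCR7 lie above 0.

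A list of chemokine induction (cytokines, NF-kB and interferon factors, Toll-like receptors) had 18 tested genes, and it includes inhibitors as well as inducers. Of the 18, 12 had a mean above 0 and 6 below, with a median of 0.07, where 54.1% of all tested probes lay above 0. At an unadjusted p under 0.05 limma gave 2 of the 18, both upwards, against 4.31% of all tested probes, with 0 after adjustment. The first was IL1A, an alarm cytokine, with -0.35, 2.04, 0.73 and 1.39 on arrays 1 to 4. The second was the interferon factor IRF7, with 0.20, 0.41, 0.06 and 0.56. IL1B had -1.31, 1.22, 1.86 and 1.50, below 0 on array 1 and above 0 on the rest. The NF-kB inhibitor gene NFKBIA had -0.43, 1.10, 0.14 and 0.62 and TNFAIP3, another NF-kB target, -0.50, 0.92, 0.51 and 0.83, each lowest on array 1. TNF had a mean of 0.08 ± 0.12. Of 8 tested genes of chemokine signalling and processing, 5 had a mean above 0, again beside 54.1% of all tested probes. At an unadjusted p under 0.05 limma gave 1 of the 8 upwards, against 4.31% of all tested probes. It was MMP9, a protease that trims chemokines (0.25, 0.02, 1.21 and 0.51). PIK3CG, which is among the 5, passed the filter through its treated channel alone. DPP4, which inactivates CXCL10 and CXCL12 by clipping them, had -0.02, 0.57, -0.28 and 1.42.

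Whole tissue was measured, so more cells of a type and more RNA per cell cannot be told apart. Of 9 tested macrophage and monocyte markers, all 9 had a mean above 0 and 8 reached an unadjusted p under 0.05 in limma, with 0 after adjustment. Of all tested probes, 54.1% had a mean above 0 and 4.31% reached that p upwards. C1QC, which is among the 8, passed the filter through its treated channel alone. The median of the 9 was 0.60, and by array it was 0.69, 0.18, 0.86 and 0.76. MRC1 was measured on 3 of the arrays. The summed intensity of the macrophage list ran from 7573 to 17968 over treated and from 4580 to 10757 over untreated channels, and SIGLEC1 was not above background anywhere. The neutrophil list had 2 tested genes of 13 listed, S100A8 at 0.17, 2.33, -2.01 and 0.96 and S100A12 at -0.09, 0.68, -0.11 and 0.60. S100A12 passed the filter through its treated channel alone. The neutrophil sums overlapped fully, from 697 to 8030 with and from 665 to 8664 without orexin B. S100A8 was highest on array 2 and below 0 on array 3, as CCL20 was.

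PPBP is a platelet product, and of the platelet list 3 genes were tested. ITGA2B and GP9 had means of 0.08 ± 0.12 and 0.03 ± 0.11, ITGB3, which other cells also express, had 0.09 ± 0.39, and GP1BB was not above background. The platelet sums ran from 155640 to 433127 with and from 200057 to 400906 without orexin B. Such a sum of intensities is weighted towards the brightest probes of its list, so it does not measure platelet content. T and NK cell markers had 3 tested genes of 13 with a probe, and CD3D, CD4 and GZMA were not above background in either channel. The median of the 3 was 0.18, the value of CD3G. CD3G and NKG7, the genes with means above 0, passed the filter through the treated channel alone, and GZMB had a mean of -0.04. The sums of the 3 tested genes ran from 1125 to 1285 with and from 1007 to 1217 without orexin B.

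Epithelial markers had array medians of 0.33, 0.09, -1.86 and 1.10, and their sums ran from 11311 to 30088 with and from 9617 to 29285 without orexin B. Array 3, where CXCL9, CXCL10, CXCL11 and CCL20 were below 0, was thus also the array where EPCAM (-2.69) and KRT8 (-1.49) were lowest. Smooth muscle markers, which define the tissue, were tested for 9 genes, all with a mean below 0, where 54.1% of all tested probes lay above 0. At an unadjusted p under 0.05 limma gave 0 of the 9, against 3.41% of all tested probes downwards. The smooth muscle markers had array medians of 0.0035, -1.13, 0.16 and -1.21. Their sums ran from 350027 to 892027 with and from 646036 to 1089830 without orexin B, and they were below 0 on arrays 2 and 4, where CXCL8 and CXCL2 were highest. Fibroblast markers had a median of -0.41 over 4 genes, blood endothelium markers 0.31 over 4 and the trophoblast list 0.25 over 5. At an unadjusted p under 0.05 limma gave CLDN5 (0.45 ± 0.14) and CDH5 (0.31 ± 0.12) of the endothelium and IL1B2 (0.49 ± 0.17) of the trophoblast list upwards. It gave DCN (-0.43 ± 0.13) of the fibroblasts downwards. Of 4 tested epithelial genes, SPP1 (0.53 ± 0.21) reached that p upwards and 3 had means below 0. Of all tested probes, 4.31% reached that p upwards, and 0 of these genes passed after adjustment. The fibroblast sums ran from 46693 to 80784 with and from 76944 to 80599 without orexin B, the endothelial sums from 9438 to 16967 and from 7838 to 13028, and the trophoblast sums from 5872 to 8083 and from 4284 to 8253. The part of these cell types in the chemokine ratios was not tested.

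Among 1969 other named genes, the 3 whose ratios lay closest to those of a member over the 4 arrays were found by the root mean square difference, for members with a mean of at least 0.5 in size. For CXCL8 they were RSAD2, an antiviral enzyme (0.98, 2.59, -0.05 and 2.71, difference 0.84), and the proteases MMP12 (difference 1.08) and MMP3 (difference 1.09). For PPBP they were EMP1 (0.65, 1.00, 0.86 and 1.64, difference 0.33), C1QB (difference 0.55) and ARG1 (difference 0.55). For CXCL2 they were MMP12 (0.98, 0.81, -0.45 and 2.37, difference 0.54), MMP1 (difference 0.56) and DIO2 (difference 0.62). These distances describe 4 arrays and were not tested.

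**Figure D5:**
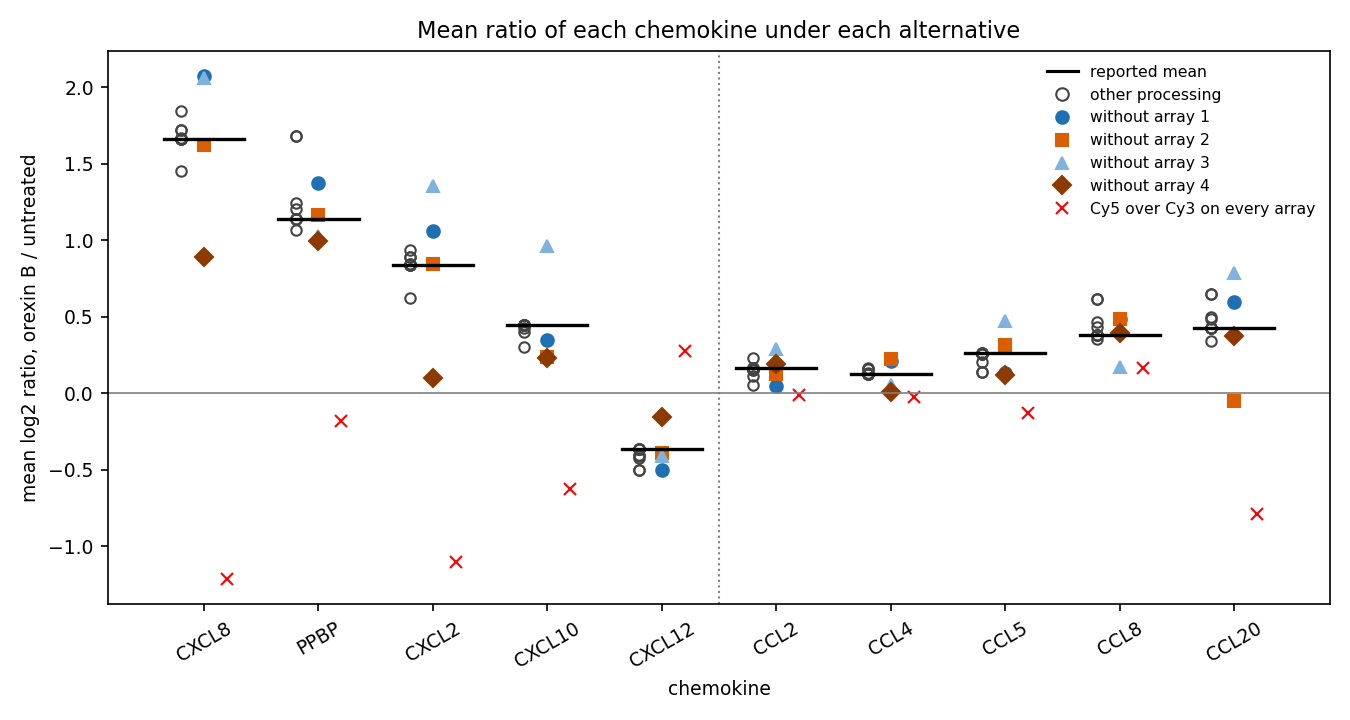
The mean log2 ratio of each chemokine (horizontal axis) is plotted as reported (black dash), with other processing (open circles), without each array in turn (coloured symbols) and with Cy5 over Cy3 taken on every array (red cross). Without array 4 CXCL8 falls from 1.66 to 0.89 and CXCL2 from 0.84 to 0.096, and PPBP stays between 0.99 and 1.38 without any 1 array.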

How the data were processed

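Each array's deposited file gives, per spot, the median intensity and local background of both colours. Its log10 ratio, red over green, was computed by the authors' scanner software (Feature Extraction 10.7.3.1, as the file headers state). The deposited series table holds log2 ratios, 100% of which matched the processed signals within 0.01 with orexin B as numerator (column medians -0.27, -0.08, -0.20 and -0.09). RNA was labelled at 825 ng per dye, per the labels. Dye orientation was taken from each sample's dye fields; the labelling text, which names 1 orientation for all, was tried as an alternative.

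Background was corrected by normexp (offset 50) and arrays normalized by loess in limma 3.58.1 (R 4.3.3), control spots at weight 0. Between 31 and 138 outlier spots per array were left out, and probes needed an unmarked spot on at least 3 arrays. The mean of the turned log2 ratios was tested by lmFit with an intercept, then eBayes (3 residual and 4.1 prior degrees of freedom), two-sided. Levels came from Aquantile scaling between arrays. Symbols came from the Sscrofa11.1 table by accession, for 6700 probes. A gene is represented by its brightest tested probe. Members, lists and the rule for named genes (all 10 members, all tested receptors, the genes of smallest p in each other list, and the 3 closest genes) were chosen with earlier results of these data known; other listed genes named beside them were chosen after their values were seen. The fit was checked on simulated data. The planned split of CXC members by protein sequence was not made, and 1 listed gene is not reported here. Plots used matplotlib 3.10.9 under Python 3.11.15.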

Additional observations from a re-analysis of the deposited data

Results flagged for a closer look

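Among 55 sets of 4 array values of chemokines, their receptors and genes of their induction and signalling, 5 had 1 array far from the rest. The rule would give 2.75 by chance if values were normally distributed and the sets independent. Genes measured on the same arrays are not independent, so the 5 are listed without being read as an excess. CXCL10 had a log2 ratio of -1.11 on array 3, against 0.74 to 1.09 on the other arrays. CXCL9 had -2.26 on array 3, against 0.45 to 1.00. CCL19 had -1.52 on array 4, against -0.34 to -0.14. CCL11, an eosinophil attractant, had 0.40 on array 3, against -0.06 to -0.01, and the G protein gene GNAI3 had 0.23 on array 3, against -0.12 to -0.08.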

How the results depend on the processing

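In limma's moderated test 0 probes and 0 chemokine probes passed the adjusted threshold under all 13 alternatives, and the smallest adjusted p was 0.0783, with slide as a random block. Unadjusted p-values under 0.05 were found for 1534 probes, and for 177 with median centring, 2302 with no filter on dim probes, 2382 with a dye term, 4280 with the slide block (estimated correlation -0.26) and 720 to 1896 without 1 array. Of these, 856 were higher and 678 lower, against 172 and 5 with median centring. Chemokine probes at that p were 2, and 1 with the strict filter, which drops PPBP, 5 with the dye term, 7 with the slide block, 1 with Cy5 over Cy3 on every array, and 1 (without array 2) to 8 (without array 3) without 1 array. The CXC minus CC difference of 0.47 was -0.41 with Cy5 over Cy3 and 0.19 to 0.64 without 1 array. That alternative ignores the dye fields. It turned the sign of CXCL8 (-1.22), PPBP (-0.19), CXCL2 (-1.10), CXCL10 (-0.63), CXCL12 (0.28), CCL2 (-0.014), CCL4 (-0.029), CCL5 (-0.13) and CCL20 (-0.79). CCL20 also turned without array 2 (-0.051), and was 0.78 without array 3. The other 129 of 139 gene values kept their sign. Every fit compares the treated and untreated RNA within an array, and so is paired by array. The labels form 1 group and do not state that the RNAs on an array came from the same gilt, so a pairing by animal cannot be stated. The number of arrays and dim spots limit what could be detected.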
